A study of Mus musculus with 6 samples.

Results

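Gp49a and Lilrb4 encode the gp49 receptors, gp49A and gp49B, a pair of immunoglobulin-like receptors of mouse leukocytes that are now named Lilr4b and Lilrb4a. They were followed in regulatory T cells (Tregs), the T cells that restrain immune responses, as 2 of the 23152 genes with probe sets of their own. Every probe set whose platform annotation names either gene was taken. There were 9 such probe sets among the 269751 on the array, 4 annotated to Gp49a alone, 4 to Lilrb4 alone and 1 to both. Both genes were chosen by the measured fall of their gene-level intensities in DJ-1 knockout Tregs relative to wild type. Their differences between the genotypes are therefore given as a description, with no test. Only other genes are tested below, and their lists were drawn up with earlier results of these data known.

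The knockout (KO) group was made up of 3 male DJ-1-/- mice, and the wild-type (WT) group of 3 male DJ-1+/+ littermates. All 6 mice were 45 weeks old, untreated and kept under specific-pathogen-free conditions, and each gave 1 array. CD4+ cells with high CD25 were sorted from the spleen, and their RNA was hybridised to Affymetrix Mouse Gene 2.0 ST arrays. The labels name no allele beyond the genotype and do not limit the knockout to a cell type, so an effect of DJ-1 loss in other cells of the mouse cannot be told apart from one within the Tregs.

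gp49B is an inhibitory receptor. Its cytoplasmic tail carries immunoreceptor tyrosine-based inhibitory motifs (ITIMs), which, once phosphorylated, recruit SHP-1 and dampen signals from activating receptors. gp49A has a closely similar extracellular part but lacks these motifs, so the 2 genes form what is called a paired receptor family. They were first described on mast cells, macrophages and natural killer (NK) cells, and gp49B is also found on activated and effector T cells, Tregs among them. The human relative of gp49B is LILRB4, also called ILT3.

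Both genes lie side by side on mouse chromosome 10, with Gp49a first, whereas Park7, which encodes DJ-1, lies on chromosome 4. The RefSeq promoter of Gp49a (entered as Lilr4b) is shown as the stretch from which its transcript starts. It is the 1 promoter of the pair matched in the RefSeq table used here. The 250 bases before its annotated start, at chr10:51480362-51480611 on the plus strand of GRCm38.p6, read 5′ to 3′ as follows, with the opening run of purines in capitals.
Lilr4b: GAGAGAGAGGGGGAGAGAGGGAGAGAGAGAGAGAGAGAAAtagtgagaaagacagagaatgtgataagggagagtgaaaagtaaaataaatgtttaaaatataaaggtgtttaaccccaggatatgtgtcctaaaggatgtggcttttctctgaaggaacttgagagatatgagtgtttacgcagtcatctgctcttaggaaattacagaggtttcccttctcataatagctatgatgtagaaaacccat
The purine run is 40 bases long. Of 32851 RefSeq promoter windows of the same length, 0.42% held an unbroken run of purines or of pyrimidines at least that long. Of 7 short motifs searched on both strands, 3 were found, at 1 place each and without overlap. GATAA, the core of GATA factor motifs, starts 188 bases before the gene start, and 22.58% of the windows hold it. TATAAA, the TATA box letters, starts 151 bases before it and occurs in 12.37% of windows. CANNTG, the E-box letters, starts 64 bases before it and occurs in 66.22%. The letters TGANTCA (AP-1), GAGGAAG (PU.1), TGTGGT (RUNX) and GCGTG (the AHR core) do not occur in this window, and occur in 6.75%, 10.61%, 14.05% and 28.16% of all windows. These matches describe letters only, and no binding was measured.

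The arrays were first checked against their labels. Park7 was at 6.06, 5.96 and 5.71 log2 units on the KO arrays, against 9.48, 9.27 and 9.70 on the WT arrays, where a log2 unit here and below is log2(intensity + 16). All 13 Treg and T cell markers were measured above the filter on low values, among them Foxp3, the lineage transcription factor (12.72 ± 0.03 in KO and 12.66 ± 0.02 in WT, SD, n = 3 each), and Il2ra, which encodes CD25 (12.55 ± 0.12 in KO and 12.55 ± 0.05 in WT). Of these 13 markers 12 had negative differences, with a median of -0.12 log2 units, and their summed intensity was lower in KO, as given with the marker lists below. The median intensity per array ranged from 88.6 to 100.2, with KO replicate 1 lowest, and that array also had the lowest mean correlation with the others (0.951). Over all tested genes the median difference was -0.05 log2 units, KO minus WT. With 3 arrays a group, the number of arrays sets how precise each value is.

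Gp49a was lower in KO Tregs on all 4 of its own probe sets. Probe set 17233221 had intensities of 76.6, 99.8 and 107.2 on the KO arrays, against 508.9, 634.9 and 506.3 on the WT arrays. Probe set 17233215 had 65.6, 64.7 and 48.7 in KO, against 355.2, 483.3 and 274.5 in WT. In these 2 probe sets the KO mean was 17.2% and 16.1% of the WT mean, and every KO array lay far below every WT array, by 4.72-fold and 4.18-fold even between the highest KO and the lowest WT value.

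The brightest Gp49a probe set, 17233220, had intensities of 343.8, 478.2 and 489.0 in KO, against 1367, 2108 and 1166 in WT, so that the KO mean was 28.2% of the WT mean. The dimmest, 17233225, had 14.5, 19.6 and 8.91 in KO, against 77.1, 75.4 and 31.5 in WT. Here too the groups did not overlap, but the lowest WT value exceeded the highest KO value by 1.61-fold only, and the probe set lay under the 40th percentile of all probe sets on the array. In bulk RNA, fewer cells that express a gene and less of its RNA per cell cannot be told apart, and this holds for every difference given here.

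Lilrb4 was also lower in KO on each of its 4 own probe sets. Probe set 17233232 had intensities of 1512, 1871 and 1487 in KO, against 4483, 5133 and 3609 in WT, and probe set 17233230 had 971.6, 1941 and 1491 in KO, against 4416, 4833 and 3158 in WT. The KO means were 36.8% and 35.5% of the WT means, the highest shares among the 8 gene-specific probe sets. Probe set 17233229 had 691.0, 659.2 and 510.1 in KO, against 2103, 2531 and 1460 in WT, which is 30.5% of the WT mean. None of these 3 bright probe sets overlapped between the genotypes, although KO replicate 2 came within 1.63-fold of WT replicate 3 on 17233230.

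The dimmest Lilrb4 probe set, 17233236, spread the most among KO arrays. It had intensities of 2.80, 59.0 and 60.2 in KO, against 168.1, 300.6 and 102.7 in WT. KO replicate 1 was thus close to 0 while the other 2 KO arrays agreed closely. The log2 difference of this probe set was -2.0 with all arrays and -1.33 without KO replicate 1.

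The probe set annotated to both genes, 17233211, did not separate the genotypes. It had intensities of 6.02, 24.6 and 13.3 in KO, against 28.8, 27.3 and 10.9 in WT, so that KO replicates 2 and 3 lay above WT replicate 3. The KO mean was 65.7% of the WT mean, and the log2 difference was -0.33 (SD 0.44 in KO and 0.41 in WT, n = 3 each). This probe set was dim, under the 40th percentile of all probe sets, and leaving out 1 array at a time moved its difference between -0.57 and -0.11.

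Counted together, all 8 gene-specific probe sets had their 3 KO arrays below their 3 WT arrays, and the shared probe set did not. Over the array as a whole, 7.64% of all 269751 probe sets lay that way (8.77% of the 161851 at or above the 40th percentile). Tested one by one with limma, 0.000741% of all probe sets passed an adjusted p of 0.05 as lower in KO and 0.000371% as higher. Because the genes were chosen for this contrast, nothing is read from the members' count. Of the 9 probe sets, 7 lay at or above the 40th percentile, the exceptions being the shared 17233211 and 17233225 of Gp49a. The annotation assigns probe sets to genes by name. Since the genes are close relatives, RNA of one may have bound to probe sets named for the other, and the probe sequences were not used here, so how far the 2 signals are separate was not tested.

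**Figure D1:**
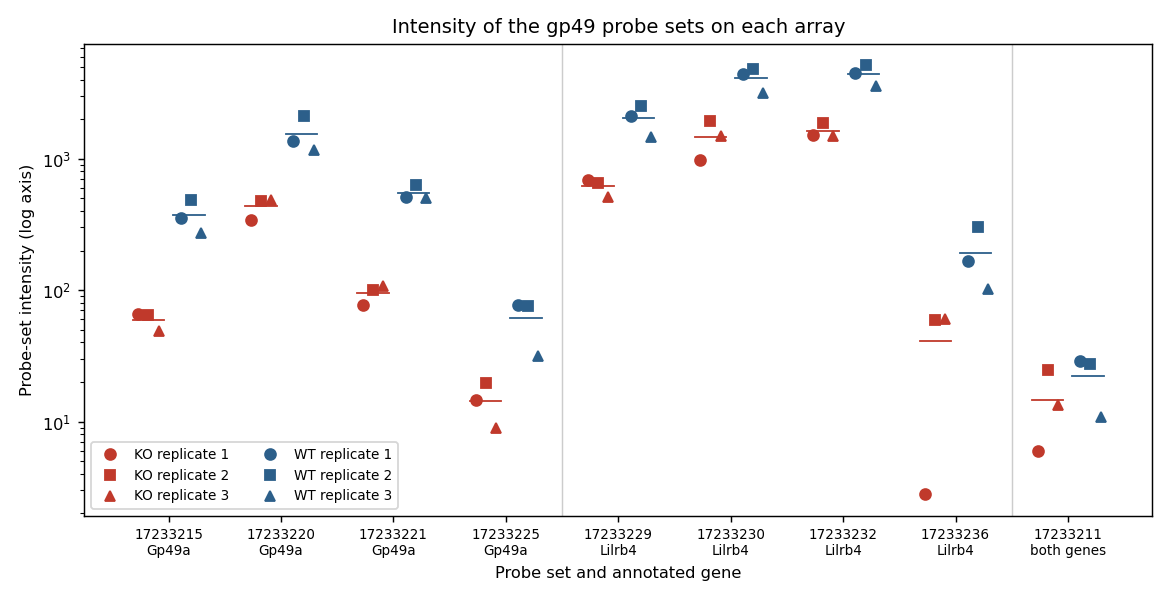
Intensity (log axis) of the 9 gp49 probe sets, with 1 point for each array and KO to the left of WT in each column. The short lines are group means, and the marker shape gives the replicate number. The KO points lie below the WT points in all 8 gene-specific probe sets, with KO replicate 1 of 17233236 at 2.80, and the groups overlap in 17233211.

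At the level of the gene, taken as the median of its own probe sets, Gp49a was at 6.44, 6.60 and 6.48 log2 units in KO, against 8.79, 9.15 and 8.61 in WT. The KO arrays lay within 0.15 log2 units of each other and the WT arrays within 0.55, with a gap of 2.01 between the groups. The difference of -2.34 means that KO Tregs had 0.197 times the WT level on this scale. Gp49a thereby held the 4th lowest difference among 13891 tested genes. On each array the median of its 4 probe sets was set by the middle 2, 17233215 and 17233221. These had its largest falls (-2.33 and -2.36), while the brightest, 17233220 (-1.76), and 17233225 (-1.30) did not enter the value. With the mean of probe sets the difference was -1.94.

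Lilrb4 was at 9.71, 10.14 and 9.80 log2 units in KO, against 11.58, 11.78 and 11.08 in WT. The gap between the groups was 0.94 log2 units, larger than the range within KO (0.43) and within WT (0.70). The difference of -1.60 corresponds to 0.330 times the WT level and was the 14th lowest among the tested genes. Over all tested genes 11.3% had every KO array below every WT array, a share from which, again, nothing is read about genes chosen for their fall.

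The difference of Gp49a was the larger of the 2. Measured within each array as the Gp49a minus the Lilrb4 log2 value, it was -3.27, -3.54 and -3.32 in KO, against -2.80, -2.62 and -2.47 in WT. The groups did not overlap, with means of -3.38 ± 0.15 in KO and -2.63 ± 0.16 in WT (SD, n = 3 each), so the within-array value was lower in KO by -0.74. This describes unequal change of 2 signals and does not compare their levels, which come from different probes. The size of this inequality, looked at under other settings after the data were seen, depended on the processing, at -0.95 when the pseudocount was 1, -0.32 when it was 64 and -0.28 when probe sets were averaged instead of taking their median.

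Among single probe sets the 2 genes ran into each other. The differences spanned -2.36 to -1.30 log2 units for Gp49a and -2.0 to -1.43 for Lilrb4. The bright Gp49a probe set 17233220 (-1.76) lay close to the Lilrb4 probe set 17233229 (-1.66). The values of the dim probe sets moved most with the pseudocount, 17233225 from -1.98 to -0.66 and 17233236 from -2.86 to -1.26 between pseudocounts of 1 and 64, while 17233232 stayed near -1.43.

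**Figure D2:**
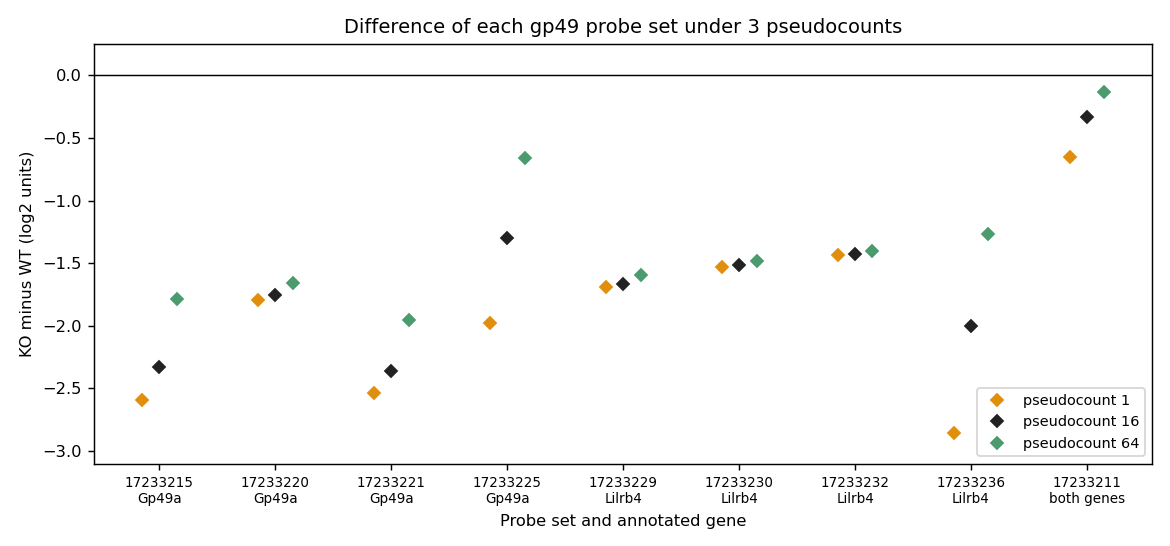
KO minus WT difference in log2 units (vertical axis) of each gp49 probe set, computed with pseudocounts of 1, 16 and 64. All points lie below 0. The bright Lilrb4 probe sets 17233229, 17233230 and 17233232 barely moved with the pseudocount, and the dim 17233225 and 17233236 moved most.

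The WT mice differed among themselves in the same way on nearly every probe set. WT replicate 3 was the lowest WT array in all 8 gene-specific probe sets, and WT replicate 2 was the highest in 7 of them, the exception being 17233225, where WT replicate 1 was slightly higher. Of the 161851 probe sets at or above the 40th percentile, 32.1% had WT replicate 3 lowest, and 18.3% had the full order of replicate 2, then 1, then 3. Over all 13891 tested genes, WT replicate 3 was the lowest WT array in 30.8%. Among the 1567 of them with all KO arrays below all WT arrays, this share was 34.8%. The median log2 value of WT replicate 3 over tested genes was 7.88, between the 7.79 of WT replicate 1 and the 7.92 of WT replicate 2, so the array was not dim as a whole.

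Among the KO mice, single probe sets did not share 1 order. At the gene level both receptors had KO replicate 2 highest and KO replicate 1 lowest (6.60 and 6.44 log2 units for Gp49a, 10.14 and 9.71 for Lilrb4). KO replicate 1 was the lowest KO array in 4 of the 8 probe sets and KO replicate 3 in the other 4. The highest KO array was replicate 1 in 2 probe sets and replicates 2 and 3 in 3 each. Probe sets of 1 gene are not independent samples, so these counts describe 6 mice.

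The genes with the profile most like that of each receptor were found by the root mean square distance between log2 values over the 6 arrays, each gene centred on its own mean. Nearest to Gp49a were Gzmk, a granzyme of cytotoxic lymphocytes, at a distance of 0.193 log2 units, and Il1r2, the decoy receptor for interleukin 1, at 0.241. Rab6b, a small GTPase of Golgi transport (0.272), the endopeptidase Ecel1 (0.372) and the cation exchanger Slc24a3 (0.386) followed. The median distance of all genes to Gp49a was 1.17.

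Nearest to Lilrb4 were Ecel1 (0.139), the inhibitory receptor Lag3 (0.161), the interleukin 13 receptor chain Il13ra1 (0.200), the membrane mucin Muc16 (0.225) and the actin-severing protein Scin (0.255), where the median of all genes was 0.829. Il1r2 was at 8.47, 9.0 and 8.75 log2 units in KO, against 10.94, 11.33 and 10.24 in WT, and Ecel1 at 6.73, 6.96 and 6.62 in KO, against 8.77, 8.81 and 7.91 in WT. In both, WT replicate 2 was the highest and WT replicate 3 the lowest WT array. The distance includes the WT arrays, so it favours genes with this order. Gp49a and Lilrb4 lay 0.393 from each other, so that Lilrb4 was the 6th nearest gene to Gp49a, and Gp49a the 51st nearest to Lilrb4. The measure rewards any gene with a fall of like size, and the order is a description of these 6 arrays.

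**Figure D3:**
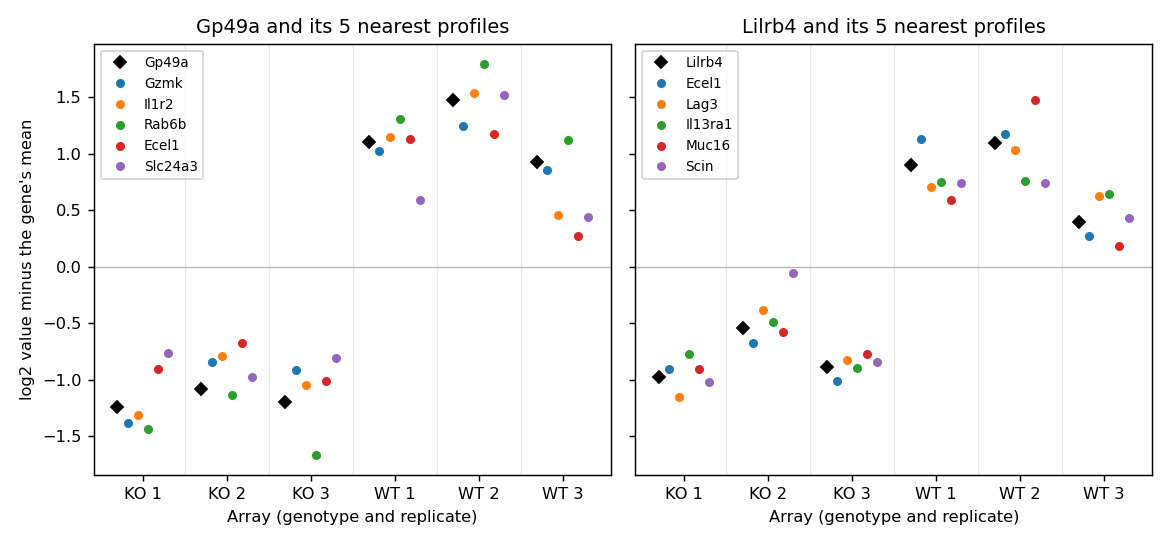
Log2 values of Gp49a (left) and Lilrb4 (right), as black diamonds, and of the 5 genes nearest to each, as coloured points, after subtracting each gene's own mean (vertical axis), on the 3 KO and 3 WT arrays. The KO points lie below 0 and the WT points above 0 in every gene shown.

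No chromosomal neighbour showed a difference of this size, but most were too dim for a fall like that of Gp49a to show. Of the 5 measured protein-coding genes on each side, 8 of 10 were under the filter on low values (5.90 log2 units). The 2 that were tested lie on the side of Gp49a. Ascc3, a helicase subunit, was at 8.97, 9.76 and 9.91 log2 units in KO, against 9.44, 9.44 and 9.69 in WT (difference 0.02, limma adjusted p = 0.977). Hace1, a ubiquitin ligase, was at 8.15 ± 0.35 in KO and 8.30 ± 0.15 in WT (difference -0.15, limma adjusted p = 0.802, SD, n = 3 each), and in both genes the groups overlapped.

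The 8 dim neighbours were Lin28b, Grik2 and Sim1 before the receptors, and Fam162b, Gprc6a, Rfx6, Vgll2 and Ros1 after them. Their differences ran from -0.50 (Rfx6) to 0.31 (Sim1) and were not tested. Sim1 and Fam162b, the nearest on either side, differed by 0.31 and 0.05, against -2.34 for Gp49a and -1.60 for Lilrb4. Their WT means of 5.70 and 5.80 lay near the low end of this scale, so a fall as large as that of Gp49a could not show.

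**Figure D4:**
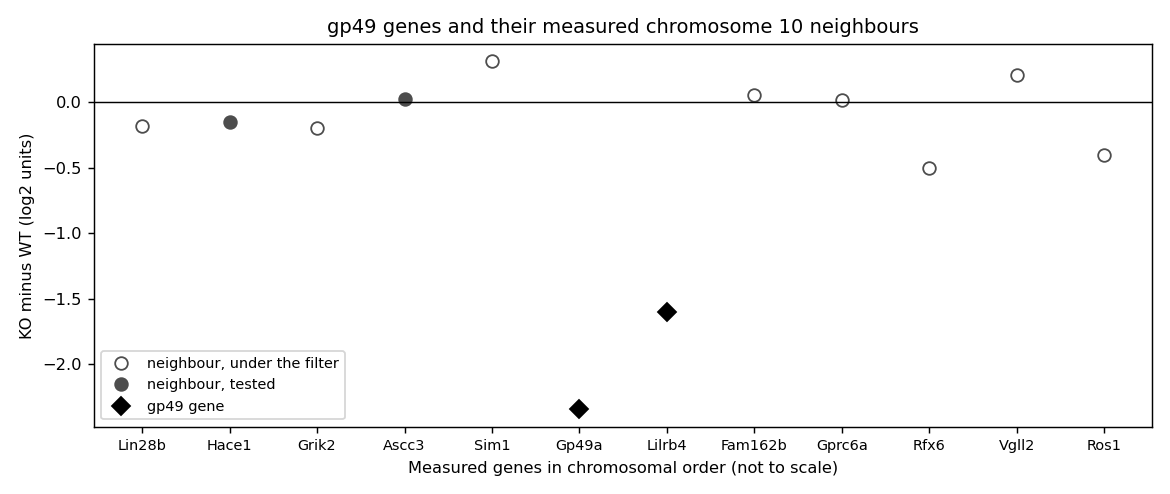
KO minus WT difference in log2 units (vertical axis) of Gp49a and Lilrb4 (diamonds) and of the 5 measured genes on each side, in chromosomal order and not to scale. Filled circles were tested and open circles lay under the filter. The neighbours lie between -0.50 and 0.31.

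Genes that work with or resemble the gp49 receptors were then read from the fit across all 13891 genes. In that fit 0.266% of genes passed a limma adjusted p of 0.05 as lower in KO and 0.0072% as higher. Of 34 tested genes in 5 related lists 1 passed, Lag3, which was lower in KO. An unadjusted p under 0.05 was reached by 7 (1 in each of the first 4 lists below and 3 among the other inhibitory receptors). Over all 13891 tested genes 1482 reached it, the background for this count and for those of the marker lists below. The median difference of these 34 genes was -0.03, beside -0.05 over all genes. Over all tested genes 11.3% had every KO array below every WT array. The share with every KO array above every WT array was not counted. Where the arrays of a single gene below do not overlap, this is therefore a description only.

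Among related immunoglobulin-like receptors, 6 of 13 listed genes had probe sets of their own, 3 were tested, and none passed. The collagen receptor Lair1, which carries ITIMs, was at 6.36, 6.90 and 6.68 log2 units in KO, against 6.31, 6.08 and 6.0 in WT. Its 3 KO arrays lay above its 3 WT arrays, by 0.52 on average (limma adjusted p = 0.318), a direction opposite to that of the gp49 genes (0.33 when the pseudocount was 64). Oscar, a receptor of osteoclasts, differed by 0.10 and Tarm1 by 0.03 (adjusted p = 0.848 and 0.956), and with 1 array left out at a time they lay between -0.01 and 0.21 and between -0.13 and 0.19. Pirb, another inhibitory receptor with ITIMs, and Lilra5 and Lilra6 lay under the filter in Tregs of both genotypes.

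The signalling proteins that ITIMs recruit were well measured and did not pass. Ptpn6, which encodes SHP-1, was at 10.82, 10.84 and 10.69 log2 units in KO, against 10.47, 10.43 and 10.47 in WT (0.33, SE 0.13, limma adjusted p = 0.408, and 0.16 when probe sets were averaged). Inpp5d, the lipid phosphatase SHIP-1, was at 10.94, 10.97 and 10.87 in KO, against 10.65, 10.85 and 10.57 in WT (0.23, adjusted p = 0.592). In both the KO arrays lay above the WT arrays without passing the test. Ptpn11, which encodes SHP-2, was at 9.35, 9.46 and 9.18 in KO, against 9.50, 9.55 and 9.84 in WT (-0.30, adjusted p = 0.539, and -0.20 without WT replicate 3). Of the 8 phosphatases and kinases listed 6 were tested, with a median difference of 0.01.

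Of the activating adaptors and their kinases 5 of 6 were tested and none passed. Fcer1g, the signalling chain of Fc receptors and of activating receptors of this family, was at 6.86, 7.76 and 7.45 log2 units in KO, against 7.46, 8.01 and 8.22 in WT (-0.54, limma adjusted p = 0.501, and -0.29 without KO replicate 1). Tyrobp, the adaptor DAP12, differed by -0.26 (adjusted p = 0.573) and Cd247, the zeta chain of the T cell receptor, by 0.41 (adjusted p = 0.444, and 0.20 when probe sets were averaged). The groups overlapped for Fcer1g and not for the other two. The kinase Syk lay under the filter.

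Reported ligands were measured in the same cells, although receptors may meet them on other cells. Of 5 listed, 4 were tested and none passed. Alcam, an adhesion molecule reported to bind human LILRB4, was at 7.82, 8.67 and 8.21 log2 units in KO, against 9.04, 8.92 and 8.97 in WT (-0.74, SE 0.20, limma adjusted p = 0.239, and -0.48 when probe sets were averaged). All its KO arrays lay below its WT arrays, and KO replicate 1 was the lowest. The integrin chains Itgav and Itgb3, which together form a receptor reported to bind mouse gp49B, differed by -0.29 (adjusted p = 0.663) and 0.15 (adjusted p = 0.755). Itgav lay between -0.44 (without KO replicate 2) and -0.06 (without KO replicate 1) with 1 array left out. Itgb3 lay between 0.08 (without WT replicate 1) and 0.28 (without WT replicate 3), and was at 0.36 when probe sets were averaged.

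The other inhibitory receptors held the 1 gene that passed. Lag3, which binds MHC class II, was at 7.29, 8.07 and 7.62 log2 units in KO, against 9.15, 9.48 and 9.07 in WT (-1.58, SE 0.21, limma adjusted p = 0.0198). The groups did not overlap, and the size of its fall was close to that of Lilrb4. When each array was left out in turn, it passed 2 of 6 times, without KO replicate 1 or 2 (adjusted p between 0.0112 and 0.112). Of the 16 tested receptors 11 had negative differences, with a median of -0.17 (-0.05 without KO replicate 1) and a range from -1.58 to 0.37. Summed over the 22 listed genes, their intensities ranged from 16602 to 20436 on KO arrays and from 21820 to 23068 on WT arrays. The brightest genes weigh most in such a sum, so it does not describe the list as a whole. Among them Tigit, named after its values were seen, was at 10.98, 12.01 and 11.83 log2 units in KO. Its WT values were 12.54, 12.62 and 12.41 (-0.92, limma adjusted p = 0.220).

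**Figure D5:**
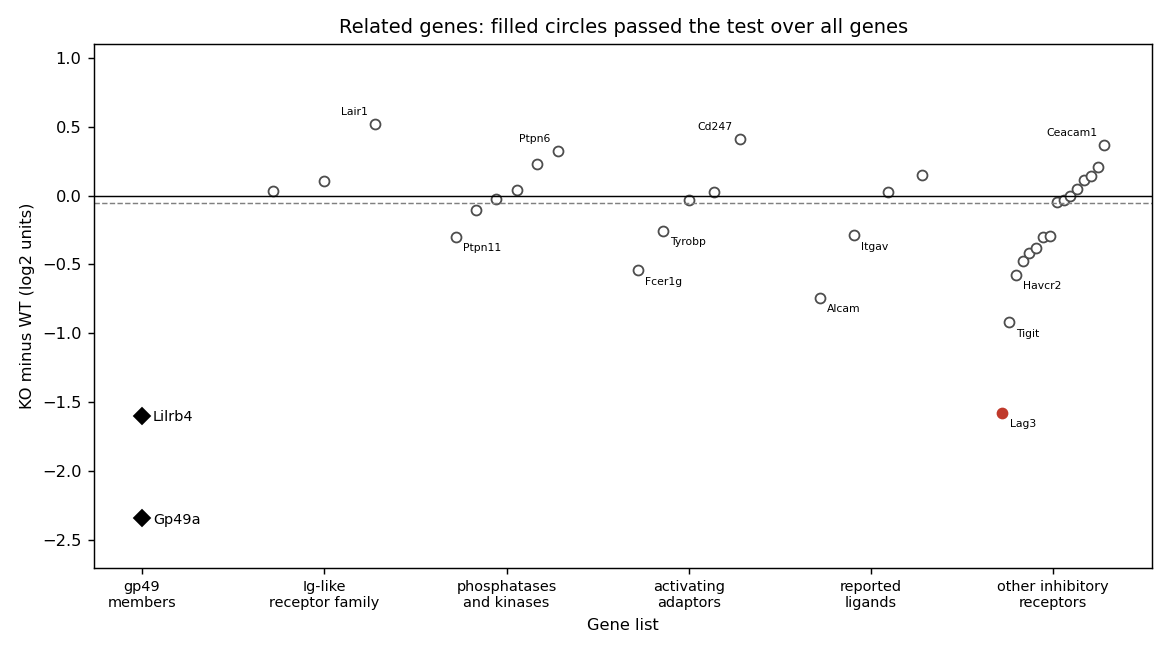
KO minus WT difference in log2 units (vertical axis) of Gp49a and Lilrb4 (black diamonds) and of each tested gene in 5 related lists (circles). The filled circle, Lag3, passed a limma adjusted p of 0.05 over all genes. The dashed line is the median of all tested genes, -0.05, and all open circles lie within 1 log2 unit of it.

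The gp49 receptors are classically expressed by myeloid cells, mast cells and NK cells, so markers of cells that a CD25 sort could still hold were set beside them. Of 10 mast cell and basophil markers 8 lay under the filter, among them Cpa3, Fcer1a and Ms4a2, and the summed intensity of the list was 226.4 to 275.5 on KO arrays and 250.9 to 289.3 on WT arrays. Of 15 macrophage and monocyte markers 9 lay under the filter, among them Adgre1, Itgam, Lyz2 and Cd14, and the sum was 712.7 to 893.2 in KO and 867.5 to 1340 in WT. These sums overlapped between the genotypes. The WT order of both receptors, replicate 2, then 1, then 3, was looked at in the macrophage list after the data were seen. It held for Itgam, Lyz2, Cd68, Cd14, C1qb, C1qc, Mertk, Spi1, Vcam1 and Cd5l. It did not hold for Csf1r, Adgre1, C1qa, Fcgr1 and Spic. Over all tested genes 18.1% had it. Lyz2 was at 5.63 ± 0.22 in KO and 5.96 ± 1.16 in WT (SD, n = 3 each). Its values on WT replicates 1 and 2 lay above the filter value. All 6 tested macrophage and monocyte markers had negative differences, with a median of -0.41 log2 units beside -0.05 over all genes, and 3 had an unadjusted p under 0.05. The adhesion molecule Vcam1 was the 1 gene of the macrophage list that passed, at 6.07, 5.86 and 6.10 log2 units in KO, against 7.02, 7.51 and 6.96 in WT (-1.15, limma adjusted p = 0.0343). Under settings tried for it after the data were seen, it did not pass when any 1 array was left out (adjusted p between 0.0530 and 0.145) or when the pseudocount was 64 (adjusted p = 0.0536), and its difference was -0.66 when probe sets were averaged. Csf1r, the receptor for colony-stimulating factor 1, and the complement gene C1qc also had every KO array below every WT array (-0.54 and -0.47, limma adjusted p = 0.318 and 0.296). Cd68, the brightest of that list, was at 7.94 ± 0.26 in KO and 8.08 ± 0.24 in WT (SD, n = 3 each), with overlap.

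NK cell markers were lower in sum, at 1502 to 1960 in KO and 2109 to 2697 in WT, without overlap. Of 8 measured, 6 were tested and none passed (2 at an unadjusted p under 0.05). Nkg7, the brightest and the largest part of the NK sum, was at 9.94 ± 0.24 in KO and 10.51 ± 0.37 in WT. Its highest KO value (10.09, replicate 2) was close to its lowest WT value (10.11, replicate 3). Ncr1 was at 6.38 ± 0.34 in KO and 7.23 ± 0.35 in WT (SD, n = 3 each, limma adjusted p = 0.362 for Nkg7 and 0.212 for Ncr1). Of the 6 differences 4 were negative. Klrb1c, which encodes NK1.1, had every KO array above every WT array (0.28, limma adjusted p = 0.552), and the transcription factor Eomes differed by 0.03. Klrd1 and Klre1 lay under the filter and were not tested. Klrd1 was at 5.21, 5.39 and 5.52 log2 units in KO, against 5.93, 6.20 and 5.96 in WT, without overlap. Klre1 overlapped between the groups. Csf1r, C1qc, Klrb1c, Eomes, Klrd1 and Klre1 were named after their values were seen. The Treg and T cell list was also lower in sum, at 43046 to 44015 in KO and 47015 to 47337 in WT, with 12 of 13 differences negative (2 at an unadjusted p under 0.05) and the largest in Cd3d (-0.41, adjusted p = 0.398).

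In the B and plasma cell list, 1 of 4 tested genes had an unadjusted p under 0.05. Sums of the neutrophil list (402.5 to 419.0 in KO and 397.9 to 408.5 in WT), the dendritic cell list (235.8 to 324.8 in KO and 293.3 to 365.3 in WT) and the B and plasma cell list (929.8 to 1081 in KO and 986.4 to 1298 in WT) overlapped, with 5 of 9, 5 of 7 and 3 of 7 measured members under the filter. The part of any of these cells in the gp49 difference was not tested.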

How the data were processed

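Expression was measured on 1 array per mouse. Per the labels, the deposited values are probe-set intensities from an exon-level analysis summarised with PLIER, and the submitters' processing notes name Affymetrix Expression Console 1.4. Background correction and normalization between arrays are not stated. Each array came from its own mouse, per the labels.

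Intensities were used as log2(intensity + 16), which understates the differences of dim probe sets, with no further normalization. Probe sets were named by the platform annotation (symbols only). Each gene took the median over the probe sets annotated to it alone, and genes under the 40th percentile (5.90) were left out (9261 genes). All 13891 remaining genes were fitted by lmFit and eBayes of limma 3.58.1 (R 4.3.3; two-sided tests, Benjamini-Hochberg over all genes, threshold 0.05), after a check on simulated arrays. Exact permutation of 3 against 3 arrays cannot go below 0.10. Current names, chromosomal order and the promoter came from RefSeq (GRCm38.p6). No genome build is named for the array values. The promoter table matched Lilr4b.

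The members, gene lists and tests were chosen with earlier results of these data known. Named were every probe set of the members, Park7, Foxp3 and Il2ra, the neighbours, the 5 nearest profiles (predicted genes and antigen receptor segments left out), from each related list the genes that passed or else the 3 with the smallest p, and from each marker list the brightest gene and the one with the largest difference. Other list members that are named were chosen after their values were seen. Alternatives were other pseudocounts, filters and normalizations, the mean of probe sets, array weights, the replicate block and leaving out each array.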

Additional observations from a re-analysis of the deposited data

How the results depend on the processing

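Gp49a and Lilrb4 were lower in KO under every alternative run. Gp49a moved from -2.34 log2 units to -2.56 when the pseudocount was 1, -1.87 when it was 64 and -1.94 when probe sets were averaged. It lay between -2.46 and -2.19 with 1 array left out. Lilrb4 lay between -1.80 and -1.45 with 1 array left out, and the shared probe set between -0.57 and -0.11. The count of 38 genes that passed was 67 with the replicate block, 125 with array weights, 60 with the mean of probe sets, and between 4 and 37 with 1 array left out (11 when KO replicate 3 was left out, and 4, 4 and 7 when WT replicate 1, 2 or 3 was). After quantile normalization 53 genes passed, 46 of them lower in KO, where the deposited values gave 37 of 38. The 1 related gene that passed, Lag3, was 0 to 1 with an array left out, with 5 to 9 related genes at an unadjusted p under 0.05. When probe sets were tested one by one with limma, 3 of 269751 passed, and this count was 79 and 8 with pseudocounts of 1 and 64, 7 with quantile normalization, 10 with median centring, 15 with probe sets at or above the 40th percentile, 0 with the replicate block (20023 at an unadjusted p under 0.05) and 0 to 2 with an array left out. The causes were not tested.

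Replicate numbers are shared by KO and WT arrays, but the labels do not say that they pair mice. Deviations from the group means of same-numbered arrays correlated at 0.15, 0.17 and 0.01 across genes. KO replicates 1 and 2 correlated best with the WT array of their own number, and KO replicate 3 with WT replicate 2 (0.09). These values do not settle whether the numbers pair mice. As the labels name no pairs, the arrays were not treated as pairs, and the replicate block was run as an alternative. The replicate block leaves the differences of Gp49a (-2.34), Lilrb4 (-1.60) and the shared probe set (-0.33) as they are. With 3 arrays in each group and no count of molecules, signal over background limits the dim probe sets 17233211, 17233225 and 17233236 most.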
